A study of Mus musculus with 20 samples.

Results

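In tumours of 66cl4 and 67NR cells, a pair of mouse mammary cancer lines from the family that also gave 4T1, 10 genes that build or mark epithelial cell junctions were followed. They were Cdh1, Epcam, Cldn3, Cldn4, Cldn7, Ocln, Tjp1, Cgn, Cgnl1 and Esrp1. They were listed by symbol, and all 10 were found among the 52783 genes of the count table, each through a single mouse Ensembl identifier (ENSMUSG00000000303 for Cdh1, ENSMUSG00000030516 for Tjp1, ENSMUSG00000068876 for Cgn and ENSMUSG00000032232 for Cgnl1). The list was chosen by name with measured levels and fold changes of these libraries in view, so the differences of the 10 genes are described with their errors, with no p-value, and the counts of calls given for them are a description. The study asked how the cells of metastatic 66cl4 tumours differ from those of non-metastatic 67NR tumours. Female BALB/cJ mice aged 8 to 12 weeks received 1000000 tumour cells in the mammary fat pad, with no other treatment, and tumours were taken 21 to 26 days later and sorted by CD45, a surface protein of leukocytes. Each of 10 mice, 5 with a 66cl4 and 5 with a 67NR tumour, gave 1 library of CD45+ cells and 1 of CD45- cells, which makes 4 groups of 5 libraries. The CD45- gate holds the tumour cells together with fibroblasts, vessel cells and other host cells that lack CD45, so it is no pure tumour cell sample, and both tumours come from cell lines grown in mice with an intact immune system.

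Epithelial cells hold together through adherens junctions, whose central adhesion molecule is E-cadherin (Cdh1), and through tight junctions, whose claudins (Cldn3, Cldn4, Cldn7) and occludin (Ocln) span the membrane. ZO-1 (Tjp1), cingulin (Cgn) and paracingulin (Cgnl1) form the plaque under the membrane and tie these proteins to actin. Epcam is a surface adhesion protein of most epithelia and Esrp1 is a splicing factor that keeps the epithelial form of many transcripts. Tumour cells that lose Cdh1 under repressors such as Snai1, Snai2, Zeb1 and Zeb2 are said to pass through an epithelial to mesenchymal transition.

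Total counts were 12960000 to 28080314 per library. Ptprc, the gene of CD45, averaged 19510 and 21880 normalised counts in the CD45+ libraries of 66cl4 and 67NR tumours and 75.2 and 266.7 in their CD45- libraries, with no overlap of the gates. In 2 mice with 66cl4 tumours, animals 5 and 6, title and recorded cell type name opposite gates. Ptprc followed the title, which was used. Levels below are normalised counts, that is estimated counts divided by a size factor for library depth, and they can be compared between libraries but not between genes of different length. Since the samples are bulk populations, fewer cells of a type and less RNA per cell cannot be told apart.

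The plaque genes were higher in the CD45- cells of 66cl4 than of 67NR tumours. Cgnl1 was 1463, 1365, 1339, 1370 and 1598 normalised counts in 66cl4 animals 3, 4, 5, 6 and 7, against 26.3, 20.3, 24.6, 13.3 and 9.20 in 67NR animals 1, 4, 5, 6 and 7. The lowest 66cl4 library stood far above the highest 67NR library, and the ratio of the means was 76.2 (log2 fold change 6.27 ± 0.19 SE, n = 5 per group). Cgn was 201.7, 176.4, 166.5, 161.5 and 133.8 in the same 66cl4 animals and 11.4, 4.50, 3.51, 6.25 and 6.14 in the same 67NR animals. The groups did not overlap here either (ratio of means 26.4, log2 fold change 4.74 ± 0.26). Tjp1 was high in both tumours, with 16480, 12730, 14490, 13640 and 13570 in 66cl4 and 7473, 6285, 4405, 5545 and 4676 in 67NR cells. The groups were again apart, but the ratio was only 2.50 (log2 fold change 1.35 ± 0.14).

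**Figure D1:**
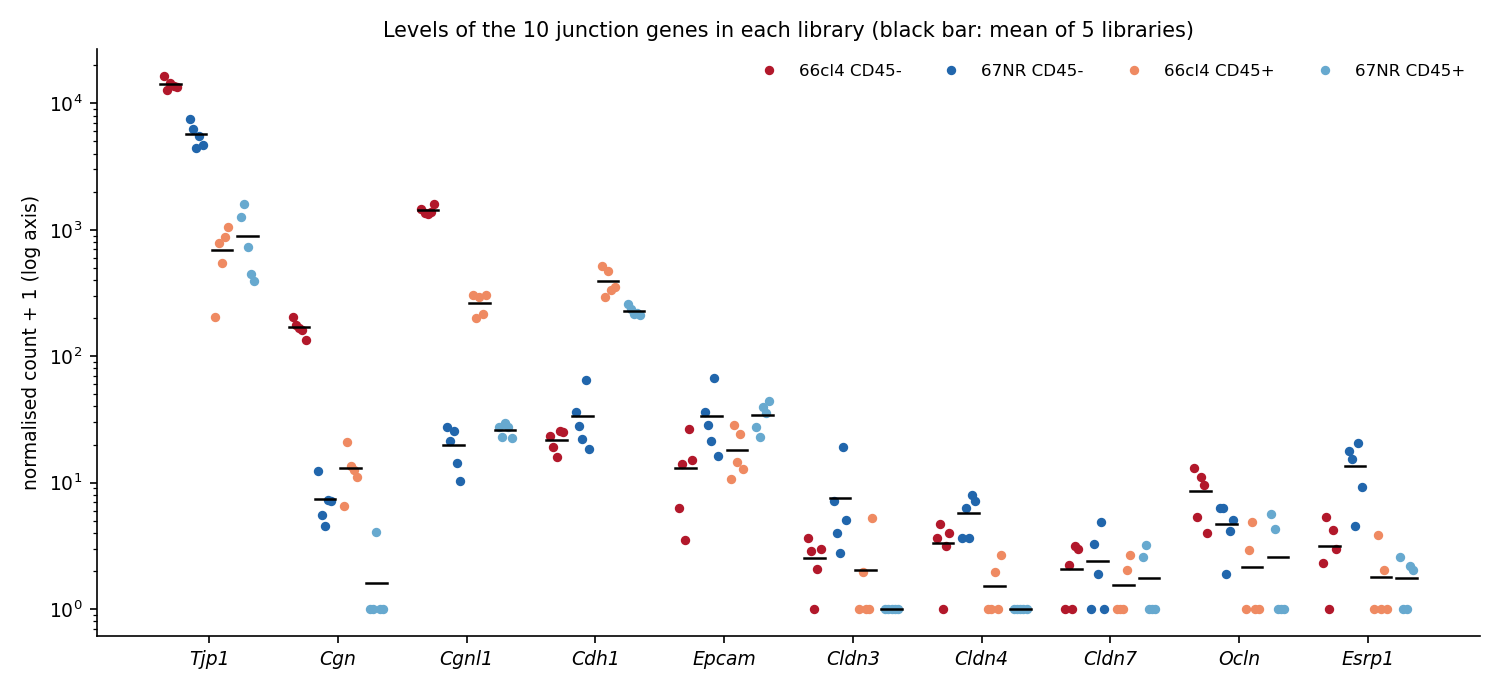
Normalised counts plus 1 of the 10 junction genes, on a log axis, in each of the 20 libraries, coloured by tumour and gate; black bars are means of 5 libraries. Tjp1, Cgn and Cgnl1 stand highest in 66cl4 CD45- cells, Cdh1 stands highest in CD45+ cells, and the claudins, Ocln and Esrp1 reach at most 19.5 normalised counts in any library.

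The start regions of the plaque genes are shown because these 3 genes were all higher in CD45- cells of the metastatic tumours, though by different amounts. They did not move together in CD45+ cells, where the log2 fold change was -0.36 for Tjp1, with overlap, and 3.40 for Cgnl1. Epcam is shown beside them as a membrane gene low in the CD45- cells of both tumours, and lower in the metastatic ones (-1.41). The windows were thus picked by measured values, and a link between motifs and levels was not tested. The sequences are the 250 bases before the RefSeq start in GRCm38.p6, each read 5′ to 3′ along its gene. They lie at chr9:71771603-71771852 on the minus strand for Cgnl1, chr3:94786483-94786732 on the minus strand for Cgn, chr7:65371245-65371494 on the minus strand for Tjp1 and chr17:87635729-87635978 on the plus strand for Epcam. Capitals mark the GC box GGGCGG, a site of Sp family factors, and the E-box CAGGTG, a site of Snail and Zeb repressors, on either strand.
Cgnl1: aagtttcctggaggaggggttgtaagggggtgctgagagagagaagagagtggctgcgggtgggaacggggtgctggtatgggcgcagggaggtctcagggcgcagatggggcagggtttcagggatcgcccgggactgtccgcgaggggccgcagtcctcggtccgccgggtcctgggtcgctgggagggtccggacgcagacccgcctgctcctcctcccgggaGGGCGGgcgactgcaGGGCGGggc
Cgn: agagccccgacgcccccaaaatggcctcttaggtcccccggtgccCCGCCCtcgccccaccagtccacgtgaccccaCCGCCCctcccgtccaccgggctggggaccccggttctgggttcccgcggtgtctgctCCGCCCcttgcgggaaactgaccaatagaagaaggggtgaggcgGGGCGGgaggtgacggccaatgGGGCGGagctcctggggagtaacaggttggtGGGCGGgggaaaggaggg
Tjp1: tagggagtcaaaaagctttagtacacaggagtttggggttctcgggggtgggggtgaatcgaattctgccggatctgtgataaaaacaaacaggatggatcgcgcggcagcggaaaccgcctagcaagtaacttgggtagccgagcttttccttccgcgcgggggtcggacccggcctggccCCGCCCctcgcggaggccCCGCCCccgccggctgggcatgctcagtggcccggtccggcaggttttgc
Epcam: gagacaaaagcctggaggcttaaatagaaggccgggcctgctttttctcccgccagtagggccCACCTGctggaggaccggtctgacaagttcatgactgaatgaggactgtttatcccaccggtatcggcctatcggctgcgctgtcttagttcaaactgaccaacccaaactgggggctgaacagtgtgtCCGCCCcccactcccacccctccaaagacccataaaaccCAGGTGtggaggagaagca
The Cgn window held 6 GC boxes, and those of Cgnl1 and Tjp1 held 2 each. None of the 3 plaque genes had the E-box, whereas the Epcam window had 2, the nearer of them 19 to 14 bases before the start, and 1 GC box. Of 32851 windows of this length in the table, 32.7% held a GC box and 17.2% the E-box. G and C made up 70.8, 70.4, 63.2 and 56.4% of the windows of Cgnl1, Cgn, Tjp1 and Epcam. The median over all windows was 52.4%. The part of base composition in the number of matches was not tested. The table had a window for 8 of the 10 genes. The E-box was also found before Cldn4 and in 1 of the 2 windows each of Cldn7 and Ocln, and not before Cldn3. The AP-1 motif TGANTCA, held by 6.75% of all windows, occurred among these genes only before Cldn4, where it stood at 2 places. No 2 of these matches overlapped, and a match describes the letters of a window, not a bound site.

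The membrane genes were low in the CD45- cells of both tumours, and most had only single counts there. Cdh1 was 22.6, 18.1, 14.98, 24.4 and 24.0 in 66cl4 CD45- cells and 35.1, 27.0, 21.1, 64.1 and 17.4 in 67NR CD45- cells. These groups overlapped, and the log2 fold change was -0.65 ± 0.34. Epcam was 5.31, 13.1, 2.50, 25.5 and 14.0 in 66cl4 and 35.1, 27.8, 20.2, 65.6 and 15.3 in 67NR cells. The 67NR libraries were mostly higher (log2 fold change -1.41 ± 0.51), but the groups overlapped. The difference no longer met the rule for a call without the CD45- library of 66cl4 animal 3 or 5, or of 67NR animal 6, and ranged from -1.83 to -0.998 with 1 library left out.

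The remaining membrane genes and Esrp1 had too few counts to pass the filter of the test. Cldn3 was 2.65, 1.87, 0, 1.06 and 2.00 in 66cl4 and 6.14, 3.001, 1.76, 18.0 and 4.09 in 67NR CD45- cells. Its raw counts over the 5 libraries added to 8 and 40, and 23 of the latter came from animal 6. Cldn4 ranged from 0 to 3.74 in 66cl4 and from 2.63 to 7.03 in 67NR cells, and Cldn7 from 0 to 2.12 and from 0 to 3.91. Ocln ranged from 2.995 to 11.95 and from 0.878 to 5.26. Esrp1 was 1.33, 4.36, 0, 3.19 and 2.00 in 66cl4 and 16.7, 14.2, 3.51, 19.5 and 8.18 in 67NR cells, so the groups overlapped in a single 67NR library, that of animal 5. The CD45- library of 67NR animal 6 was the highest of its group for Cdh1, Epcam, Cldn3, Cldn4, Cldn7 and Esrp1.

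The low membrane genes were set against other epithelial genes of the same libraries. Keratins 8 and 18, filament proteins of simple epithelia, averaged 5353 ± 273 and 1149 ± 125 normalised counts (SD, n = 5) in 66cl4 CD45- cells, and 61.6 ± 30.2 and 58.6 ± 41.0 in 67NR CD45- cells. Both differed between the tumours (log2 fold change 6.47 ± 0.27, adjusted p = 9.41e-10 for Krt8 and 4.32 ± 0.38, adjusted p = 2.34e-06 for Krt18, edgeR). Of the list of 7 keratins, 4 were tested, of which Krt8 and Krt18 rose and 2 did not pass. Krt19 averaged 22.7 in 66cl4 and 59.96 in 67NR cells (log2 fold change -1.39 ± 0.71, adjusted p = 0.106, edgeR), and Krt14 averaged 15.8 and 5.44 (1.49 ± 0.65, adjusted p = 0.0596, edgeR). Krt7, Krt5 and Krt17 were too low to be tested, with means of 5.04, 0.836 and 0.125 in 66cl4 and 8.34, 3.98 and 1.31 in 67NR cells. The summed level of the 7 keratins, most of it Krt8 and Krt18 in 66cl4 cells, was 6079 to 6826 in the 66cl4 and 90.0 to 422.7 in the 67NR CD45- libraries. N-cadherin (Cdh2), the cadherin of mesenchymal cells, averaged 1359 and 2251. The catenins that bind either cadherin, Ctnna1 and Ctnnb1, averaged 3839 and 5262 in 66cl4 cells and 3090 and 4532 in 67NR cells. The 10 genes thus did not behave as 1 epithelial group in the CD45- cells. Tjp1 was high in both tumours, and Cgn and Cgnl1 were far higher in 66cl4 than in 67NR tumours. The 6 membrane genes and Esrp1 were low in both.

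On a scale that allows for gene length (TPM with the longest reference transcript), Tjp1 stood first in 66cl4 CD45- cells at 193.6 ± 23.3, followed by Cgnl1 at 20.3 ± 2.13 and Cgn at 3.22 ± 0.471 (SD, n = 5). The libraries of these 3 genes did not overlap. Epcam at 0.555 ± 0.390 and Cdh1 at 0.450 ± 0.0818 came next and did not differ beyond their spread, and the other 5 genes lay below 0.2. In 67NR CD45- cells Tjp1 was 74.1 ± 17.0. Epcam at 1.51 ± 1.005, Cdh1 at 0.696 ± 0.437, Cldn3 at 0.498 ± 0.528, Esrp1 at 0.302 ± 0.167 and Cgnl1 at 0.251 ± 0.0857 followed, each overlapping with its neighbour. In 66cl4 CD45+ cells Tjp1 at 9.37 ± 4.79 and Cdh1 at 8.51 ± 2.29 overlapped, and Cgnl1 followed at 3.75 ± 0.953. Whether Tjp1 and Cdh1 overlapped there rests on the transcript length used, since with the median length they stood at 54.5 (16.2 to 89.7) and 6.72 (4.93 to 8.96) TPM and did not overlap. In 67NR CD45+ cells Tjp1 at 11.3 ± 6.41 lay above Cdh1 at 4.75 ± 0.251 in every library, and Epcam came next at 1.53 ± 0.504. With the median transcript length in place of the longest, Tjp1 in 66cl4 CD45- cells would be 1177 TPM, and 8 of the 10 genes kept their rank there.

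Of the 10 genes, 5 passed the filter between the CD45- groups and 4 of these met the rule for a call (an adjusted p under 0.05 with a log2 fold change beyond 1 in size), Tjp1, Cgn and Cgnl1 as higher in 66cl4 and Epcam as lower. Over all 14844 genes tested, 32.2% were called, 13.2% as higher and 18.9% as lower, and 52.9% had groups that did not overlap. As the genes were listed with such values known, nothing is read from this count.

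Cdh1 had its highest levels not in the CD45- but in the CD45+ cells. It was 516, 292.4, 473.4, 334.6 and 352.4 in the CD45+ libraries of 66cl4 animals 3 to 7 and 256, 234.1, 216.5, 216.9 and 211.9 in those of 67NR animals 1, 4, 5, 6 and 7. Every CD45+ library was higher than every CD45- library of its tumour. The ratio of the CD45+ to the CD45- mean was 18.9 in 66cl4 (log2 fold change 4.22 ± 0.21) and 6.90 in 67NR tumours (2.77 ± 0.30). Between the tumours, all 5 CD45+ libraries of 66cl4 were above all 5 of 67NR. The ratio of 1.73 (log2 fold change 0.80 ± 0.16) was below the fold that a call required.

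Cdh1 kept more of its CD45+ level in the CD45- gate than most leukocyte genes did. The CD45- level of Cdh1 was 5.28% of its CD45+ level in 66cl4 tumours, with single animals at 3.17 to 7.30%, and 14.5% in 67NR tumours, with single animals at 8.20 to 29.5%. The median over 5 leukocyte genes was 0.649% and 2.17%, although 1 of them, Itgb2, stood at 26.3% in 66cl4 tumours, and over 6 macrophage genes 1.10% and 2.46%. Medians were 2.94% and 1.99% for dendritic and Langerhans genes, 0.353% and 3.26% for T and B cell genes, and 0.223% and 1.69% for neutrophil genes. Single genes of these 3 lists reached 4.85% and 13.4%, 7.49% and 13.3%, and 2.21% and 35.4%, so some had shares like that of Cdh1 or above it. In the CD45+ libraries, other cell type markers differed between the tumours as well. Neutrophil markers were higher in 66cl4 tumours, though, unlike Cdh1, with an overlap of their sums. Their sum over 5 genes lay between 41780 and 116900 in 66cl4 and between 6700 and 48100 in 67NR libraries, and 4 of the 5 rose in the test. The sum of 6 macrophage genes was 42880 to 67330 and 70860 to 107400. The sum of 5 T and B cell genes was 479.2 to 10230 in 66cl4 and 433.9 to 2780 in 67NR libraries. Their median log2 fold change was 2.92, above the 1.99 of the neutrophil markers, but 0 of the 5 were called. The part of these cell types in the level of Cdh1 was not tested. Cd207, a defining gene of Langerhans cells, which are known to carry E-cadherin, averaged 13.8 ± 4.07 and 18.1 ± 7.96 in the CD45+ groups. The list of 6 dendritic and Langerhans genes that holds Cd207 had sums of 1082 to 2145 in 66cl4 and 1942 to 2990 in 67NR CD45+ libraries. The part of dendritic cells in the level of Cdh1 was not tested either.

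Epcam did not share this pattern. It was 9.74, 27.7, 13.5, 23.2 and 11.8 in 66cl4 CD45+ cells and 26.5, 22.0, 38.6, 34.8 and 43.2 in 67NR CD45+ cells, close to its CD45- levels (log2 fold change between the gates 0.49 ± 0.51 in 66cl4 and 0.00 ± 0.37 in 67NR tumours). Between the tumours the CD45+ groups overlapped (log2 fold change -0.91 ± 0.34), and the gene was called only without the library of 66cl4 animal 4. Cldn3 and Cldn4 had no count in any 67NR CD45+ library. A count of 0 allows up to 3 counts, 1.63e-05 to 2.31e-05% of these libraries, counting error only. In the 66cl4 CD45+ libraries Cldn3 had 6 and Cldn4 3 counts in all. Cldn7 had 3 counts over the 5 CD45+ libraries of each tumour, Ocln 6 in each, and Esrp1 4 in 66cl4 and 3 in 67NR libraries.

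**Figure D2:**
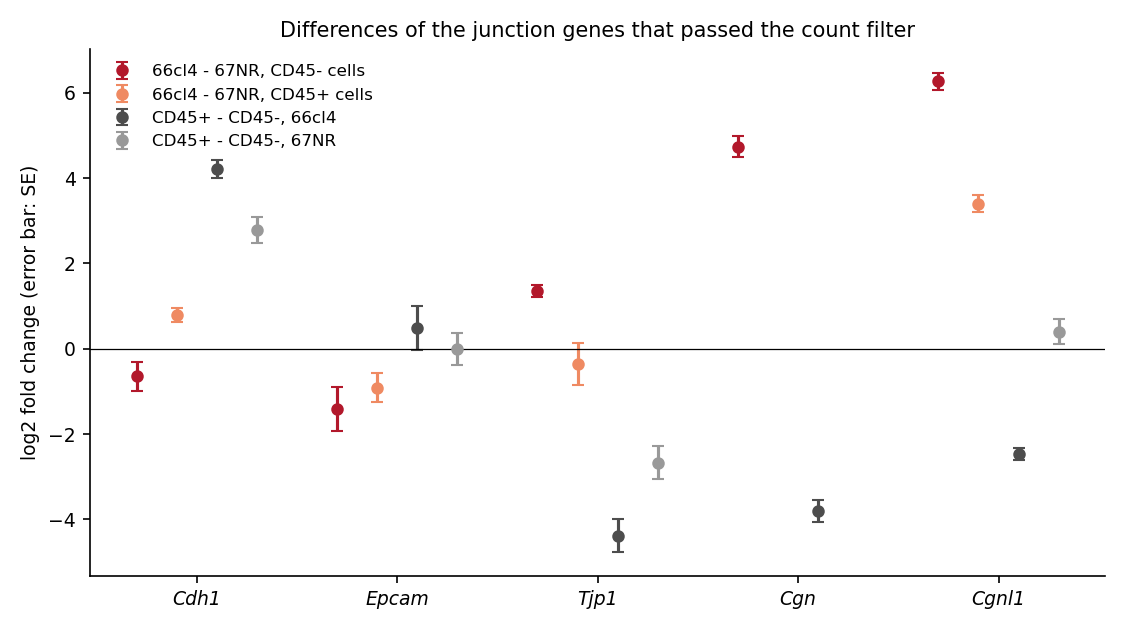
Log2 fold changes with standard errors for the 5 junction genes that passed the count filter in at least 1 comparison, between the tumours in each gate and between the gates in each tumour; a gene that did not pass in a comparison has no point there. Cdh1 is higher in CD45+ cells of both tumours while Tjp1 is lower in them, and Cgnl1 has the largest difference between the tumours, 6.27 in CD45- and 3.40 in CD45+ cells.

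The plaque genes had the opposite gate pattern in 66cl4 tumours, with lower levels in CD45+ cells, but Cgnl1 kept more of its level there than the others. Cgnl1 was 303.2, 197.8, 295.1, 215.7 and 304.3 in 66cl4 CD45+ cells and 26.5, 22.0, 28.5, 26.4 and 21.6 in 67NR CD45+ cells. The tumours did not overlap (ratio of means 10.5, log2 fold change 3.40 ± 0.19). Cgn was 5.56, 20.1, 12.5, 11.6 and 10.1 in 66cl4 CD45+ cells and 0, 0, 3.05, 0 and 0 in 67NR CD45+ cells. Tjp1 was 203.1, 785.4, 544.8, 870.1 and 1054 against 1260, 1606, 729.7, 449.4 and 389.9, and these groups overlapped (log2 fold change -0.36 ± 0.49).

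The CD45+ libraries of 66cl4 tumours also held Krt8, at 75.1 to 485.1 normalised counts, so the shares of both genes were set side by side within each animal. The CD45+ level of Cgnl1 was 20.7, 14.5, 22.0, 15.7 and 19.0% of the CD45- level in 66cl4 animals 3, 4, 5, 6 and 7. Krt8 stood at 1.40, 6.55, 4.601, 5.54 and 9.93% in the same animals, and Tjp1 at 1.23, 6.17, 3.76, 6.38 and 7.76%. The Cgnl1 share was thus above the Krt8 share in 5 of 5 animals, from 1.92 times in animal 7 to 14.8 times in animal 3, while the share of Tjp1 stayed near that of Krt8. The median share of 8 fibroblast genes was 1.79 to 11.4%. The vessel genes Cdh5 and Rgs5 stood at 16.6 to 25.4% and 7.18 to 20.05% in single animals, so a share like that of Cgnl1 was not particular to it. Of the 4 endothelial markers tested between these gates, 2 were called as lower and 2 as higher in CD45+ cells. Cgn averaged 7.13% of its CD45- level, with single animals at 2.76 to 11.4%. In 67NR tumours, where Krt8 was low, Tjp1 stood at 8.10 to 25.6% and the 10 fibroblast genes at medians of 4.19 to 20.9%. The part of tumour cells in the CD45+ levels was not tested beyond these values.

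**Figure D3:**
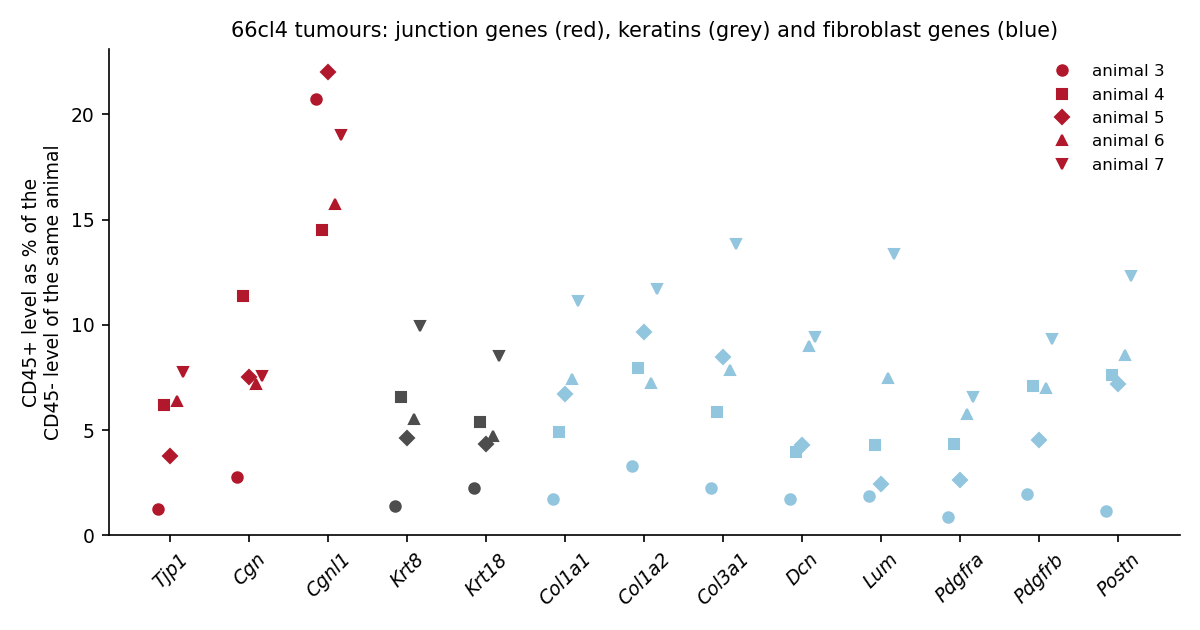
Level in CD45+ cells as a percent of the level in CD45- cells of the same mouse, in the 5 mice with 66cl4 tumours (1 symbol per animal), for plaque genes in red, keratins in grey and fibroblast genes in blue. Cgnl1 lies at 14.5 to 22.0% in all 5 animals, above the 1.40 to 9.93% of Krt8.

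Between the gates, Tjp1 was lower in CD45+ cells of both tumours (log2 fold change -4.38 ± 0.38 in 66cl4 and -2.67 ± 0.39 in 67NR), and Cgn was lower in those of 66cl4 (-3.79 ± 0.26). Cgnl1 was lower in CD45+ cells of 66cl4 (-2.47 ± 0.14), whereas in 67NR tumours its groups overlapped (0.40 ± 0.30). Of the genes listed, 4 of the 5 that passed the filter were called between the gates of 66cl4 tumours, against 44.4% of all genes tested (23.9% as higher and 20.5% as lower in CD45+ cells), and 61.4% of all genes had gates that did not overlap. Between the gates of 67NR tumours 2 of 4 were called, against 39.8% (20.2% as higher and 19.6% as lower), and 55.5% of all genes did not overlap. In the CD45+ comparison of the tumours, 1 of 4 was called, Cgnl1, against 11.8% of all genes (5.01% as higher and 6.82% as lower), and 15.1% of all genes did not overlap. That count became 2 without the CD45+ library of 66cl4 animal 3 or of 67NR animal 1, 4, 6 or 7, where Cgn passed the filter and was called, and without that of 66cl4 animal 4 through Epcam. How far the tumour effect in CD45+ cells departed from that in CD45- cells came to 1.47 ± 0.37 for Cdh1, -1.68 ± 0.53 for Tjp1 and -2.85 ± 0.28 for Cgnl1 on the log2 scale, and these 3 of 5 were called, against 43.1% of all genes. Nothing is read from these counts of the listed genes. Tjp1 lost this call without 66cl4 animals 5 and 6.

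Beside the 10 genes, 95 further junction and epithelial genes in 7 lists were counted in the same fits, with adjusted p-values over all genes tested. Between the CD45- groups 59 passed the filter, 23 rose and 10 fell in 66cl4, beside 13.2% and 18.9% of all genes tested, with a median log2 fold change of 0.39 against -0.01 over all genes. All 11 of the other tight junction membrane genes that passed the filter were called, 7 as higher and 4 as lower, with a median of 2.93, while 12 of the 23 were too low to be tested.

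Cxadr, a virus receptor that also serves as a tight junction adhesion protein, averaged 1706 ± 218 normalised counts in 66cl4 and 19.0 ± 11.2 in 67NR CD45- cells (log2 fold change 6.49 ± 0.28, adjusted p = 6.9e-10, edgeR). Cldn6, a claudin of embryonic epithelia, averaged 200.2 ± 18.9 and 2.43 ± 1.72 (6.36 ± 0.33, adjusted p = 8.64e-10, edgeR). Cldn2, a pore-forming claudin, rose by 4.59 ± 0.63 from 1.65 to 42.4. Igsf5, a junctional adhesion protein, rose by 5.52 ± 0.86, though the table has 2 identifiers for its symbol, so its level is uncertain. The other 3 that rose were Cldn12, F11r and Ildr2, and the 4 that fell were Cldn1, Cldn5, a claudin of vessels, Cldn9 and Jam2, named after their values were seen. Cldn6 and Cldn2 were thus higher in 66cl4 cells, in which Cldn3, Cldn4 and Cldn7 had single counts.

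Of 18 tested plaque and polarity genes, 7 rose, 1 fell and 10 did not pass, with a median of 0.51. The polarity gene Pard6b rose by 3.15 ± 0.20 and Patj by 2.44 ± 0.17 on the log2 scale. Amotl2, an angiomotin that binds the plaque and YAP, averaged 2185 in 66cl4 and 260.7 in 67NR cells (log2 fold change 3.10 ± 0.16, adjusted p = 1.06e-09, edgeR). Arhgef18, an activator of RhoA at junctions, rose by 1.70 ± 0.11. Tjp3 was at 2.14 and 3.64 and did not pass the filter.

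Of 13 tested adherens junction genes, 2 rose, 2 fell and 9 did not pass. Nectin1, an adhesion partner of E-cadherin at adherens junctions, averaged 7.22 in 66cl4 and 390 in 67NR CD45- cells (log2 fold change -5.62 ± 0.26, adjusted p = 2.55e-10, edgeR). Jup, the plakoglobin shared with desmosomes, fell by 2.71 ± 0.30 from 73.7 to 10.99. Plekha7, which binds p120 catenin and paracingulin at the adherens junction, rose by 2.71 ± 0.23, and the actin linker Vcl by 1.17 ± 0.10 to 6524. Among desmosome genes only 3 of 11 passed the filter, and 2 rose. Pkp2, a plakophilin, averaged 471.7 and 12.2 (5.29 ± 0.15, adjusted p = 3.46e-12, edgeR), and the plakin Ppl 331 and 27.2 (3.64 ± 0.19).

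Of 6 tested genes for epithelial splicing and transcription, 4 rose and 1 fell. Klf5 averaged 2719 and 524 (log2 fold change 2.41 ± 0.11), Gata3, a luminal mammary factor, 1722 and 533.4 (1.72 ± 0.11), and Elf3 26.1 and 3.25 (3.02 ± 0.40). Grhl2, an activator of Cdh1 and other junction genes, fell by 2.38 ± 0.37 from 44.1 to 7.75. Esrp2, the partner of Esrp1, stayed at 0 to 3.19 in 66cl4 and 0.878 to 8.59 in 67NR cells and was not tested. Of the partners of Epcam, Spint2, an inhibitor of the protease matriptase, rose by 4.59 ± 0.18 from 20.9 to 498.7, and matriptase itself (St14) did not pass the test (log2 fold change -0.28, adjusted p = 0.426, edgeR). Endothelial markers, several of which belong to junctions of vessels, had sums of 522.6 to 1059 in 66cl4 and 1101 to 4420 in 67NR CD45- libraries, and 10 fibroblast genes had sums of 10370 to 16480 and 15080 to 24120. The part of these host cells in the differences of the lists was not tested.

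**Figure D4:**
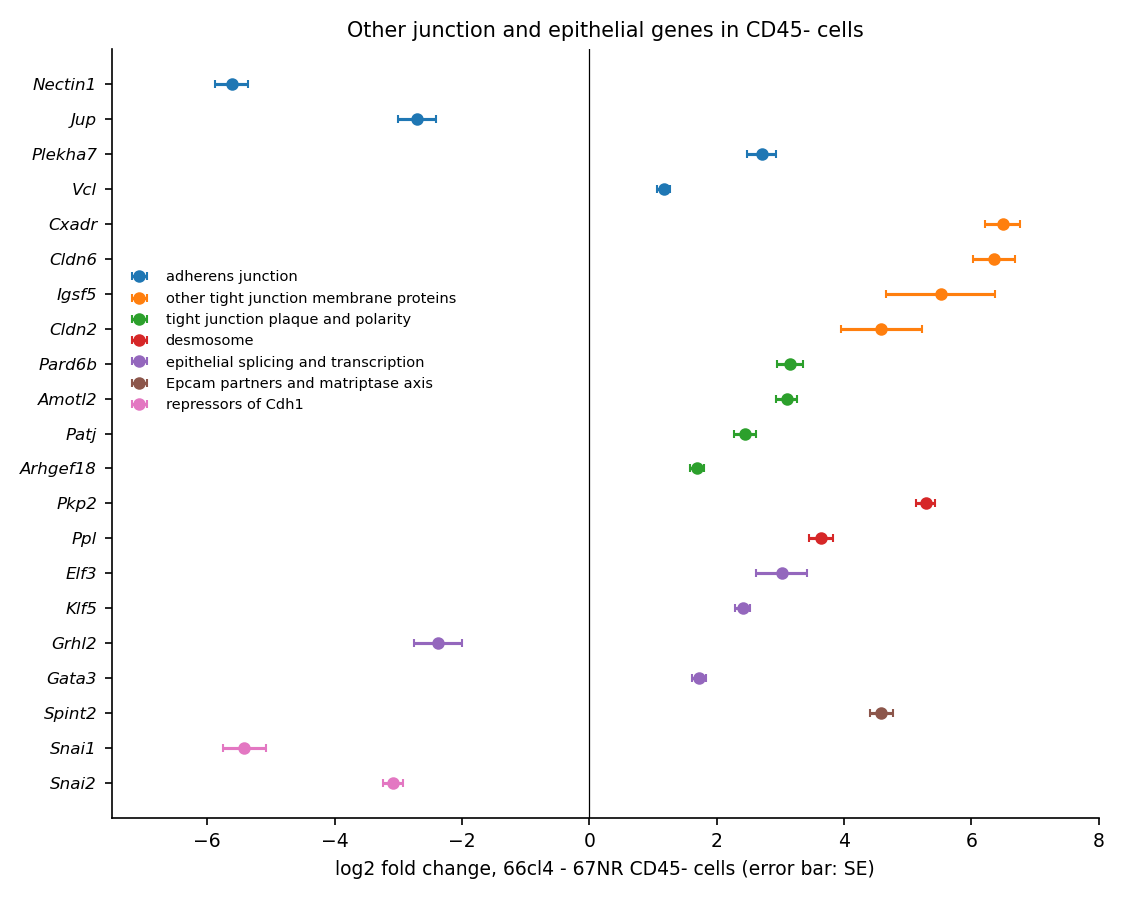
Log2 fold changes with standard errors, 66cl4 minus 67NR in CD45- cells, of the junction and epithelial genes with the largest called differences in each of 7 lists. Cxadr, Cldn6, Igsf5 and Pkp2 lie above 5, and Nectin1 and Snai1 lie below -5.

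Between the CD45+ groups, 4 of the 60 genes tested rose and 10 fell in 66cl4, beside 5.01% and 6.82% of all genes tested, with a median log2 fold change of -0.03 against 0.01 over all genes. Jam2, a junctional adhesion molecule, rose by 2.50 ± 0.34 from 36.5 to 205.5 (adjusted p = 0.000546, edgeR). Cldn9 fell by 3.19 ± 0.60, the scaffold Mpdz by 3.09 ± 0.51, the scaffold Magi1 by 2.02 ± 0.45 and Nectin4 by 1.19 ± 0.25. Cldn9 and Mpdz were also called as lower in CD45+ than in CD45- cells of both tumours, and the fibroblast sums of the CD45+ libraries lay between 239.2 and 1689 in 66cl4 and between 1004 and 3987 in 67NR tumours. The number called fell from 14 to 6 without 66cl4 animals 5 and 6, where Magi1 lost its call (adjusted p = 0.0583, edgeR). Of the 14 genes called here, 8 were also called in CD45- cells, 5 of them in the same direction (Cldn9, Cxadr, Mpdz, Pkp2 and Snai2) and 3 in the opposite direction, among them Igsf5 and Jam2.

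Cdh1 was not the only junction gene with its higher level in the CD45+ gate. Of the 95 genes, 64 were tested between the gates of 66cl4 and 62 between those of 67NR tumours. Called as higher in CD45+ cells were 15 and 13, beside 23.9% and 20.2% of all genes tested, so these counts are near those of genes at large. They include repressors of Cdh1 such as Zeb2 as well as junction genes, and 10 were higher in both tumours, which is 66.7% of the former and 76.9% of the latter. Among them were Grhl1, Ildr1, Jup, Lsr, Marveld2, Nectin4, St14, Tjp3 and Zeb2, named after their values were seen. Lsr is the angulin and Marveld2 the tricellulin that seal the meeting points of 3 cells. Lsr was 222.3 to 405 in the CD45+ libraries and 0.833 to 3.98 in the CD45- libraries of 66cl4 tumours (log2 fold change 6.84 ± 0.31, adjusted p = 2.84e-09, edgeR), and 160.5 to 240.7 against 7.502 to 18.8 in 67NR tumours (4.08 ± 0.24, adjusted p = 6.37e-08). Tjp3 averaged 40.5 and 40.8 in the CD45+ groups of 66cl4 and 67NR tumours, and 2.14 and 3.64 in their CD45- groups. Called as lower in CD45+ cells were 40 of the 64 genes in 66cl4 and 28 of the 62 in 67NR tumours, beside 20.5% and 19.6% of all genes, and 23 of them were so in both. The share called in both tumours was not counted over all genes, so nothing is read from the 10 and the 23.

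The repressors of Cdh1 were read beside it. In CD45- cells, where Cdh1 was low in both tumours, Snai1 averaged 10.5 ± 5.07 in 66cl4 and 470.7 ± 160.8 in 67NR cells (log2 fold change -5.42 ± 0.33, adjusted p = 2.18e-08, edgeR), and Snai2 115.3 ± 29.3 and 1014 ± 86.1 (-3.09 ± 0.16, adjusted p = 6.94e-10). The 4 other repressors did not meet the rule for a call. Zeb1 averaged 940 and 1678, Zeb2 2139 and 2606, Twist1 2695 and 2335, and Twist2 308.7 and 174. The groups of Zeb1 and Twist2 did not overlap, though both changes were below the fold required. Zeb1 was lower in 66cl4 cells (log2 fold change -0.80, adjusted p = 5.76e-05, edgeR) and Twist2 higher (0.86, adjusted p = 3.63e-06, edgeR). Zeb2 and Twist1 overlapped. Cdh1 averaged 20.8 in these 66cl4 cells and 32.9 in these 67NR cells, and Zeb1, Zeb2 and Twist1 were abundant in both. In CD45+ cells Zeb2 averaged 10910 ± 2672 in 66cl4 and 7521 ± 654 in 67NR tumours, above its CD45- level in every library (2.32 ± 0.16, adjusted p = 5.72e-08 in 66cl4 and 1.53 ± 0.11, adjusted p = 4.06e-07 in 67NR, edgeR). Cdh1 was also highest there, so the 2 transcripts were high in the same gate. Snai1 rose between the gates of 66cl4 tumours (3.32 ± 0.31) and fell between those of 67NR tumours (-2.49 ± 0.40). Snai2 fell by 4.14 ± 0.66 between the CD45+ groups, from 202.6 to 11.1. It was called as lower in CD45+ than in CD45- cells of both tumours. In the CD45+ libraries of 67NR animals 1, 4, 5, 6 and 7 it was 290.3, 406.7, 177.9, 88.7 and 49.4. The median fibroblast share in these animals was 20.1, 20.9, 7.85, 4.19 and 5.05%. The part of CD45- cells in this difference was not tested.

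**Figure D5:**
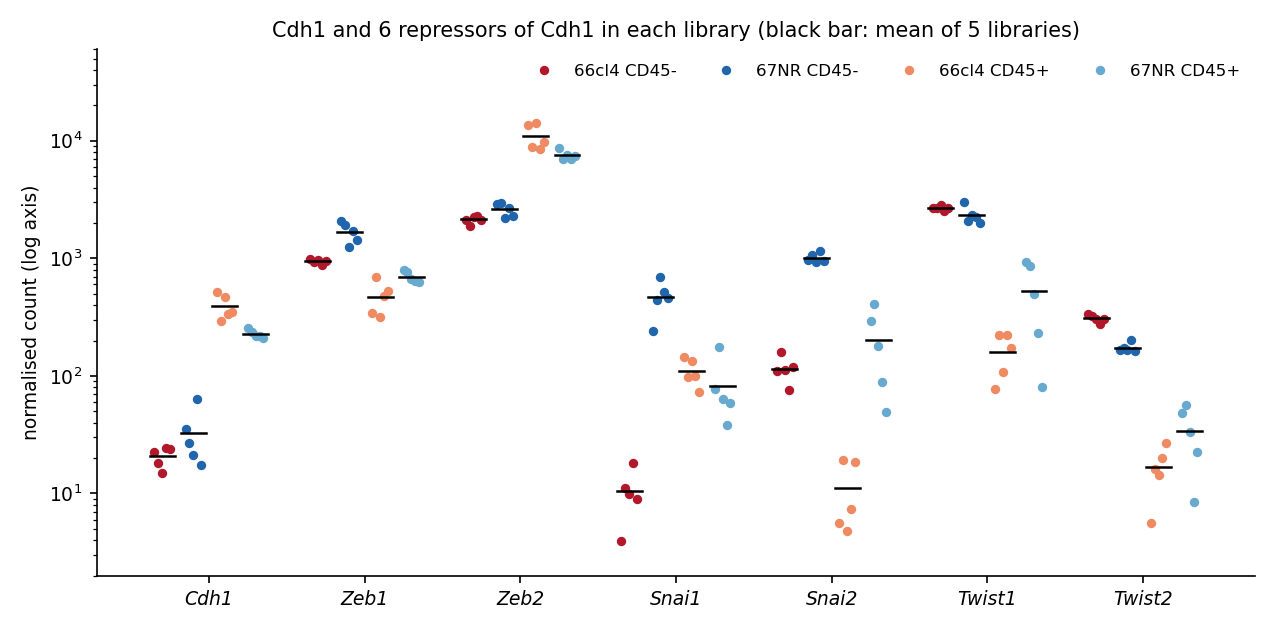
Normalised counts, on a log axis, of Cdh1 and 6 repressors in each of the 20 libraries, coloured by tumour and gate; black bars are means of 5 libraries. Cdh1 and Zeb2 are highest in CD45+ cells, and Snai1 and Snai2 separate the CD45- cells of the 2 tumours while Cdh1 does not.

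The genes whose log2 CPM followed Cdh1 most closely over the 20 libraries were Tgm1, Ppp1r21, Ltb4r1, Zeb2 and Mcemp1, with Pearson's r of 0.984, 0.983, 0.983, 0.982 and 0.982 among 16414 genes. Those nearest to Cgnl1 were Plpp5, Rbpms, Lbx1, Grem1 and Inmt, with r of 0.980, 0.978, 0.972, 0.971 and 0.970. The libraries fall into 4 groups, so these values describe a shared order of group levels and carry no test. Within the 10 CD45- libraries other genes led for each, and none of the 5 was among them.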

How the data were processed

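Libraries were made with the SENSE mRNA-Seq V2 kit and sequenced as single reads. The authors ran fastp on the reads, used Salmon 1.3.0 for estimated counts of transcripts and tximport for their sums by gene, and deposited these estimated counts without normalisation. The methods name a human reference, GRCh38, while the gene identifiers are those of mouse. Symbols and transcript lengths came from a mouse reference table, and 1291 genes without either held 2.58% of all counts. The estimation can divide reads of similar genes, such as the claudins. No column lacked a sample.

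Libraries were grouped by title. Counts were rounded and compared in R 4.3.3 with edgeR 4.0.16 (quasi-likelihood test, TMM, minimum count 10 and minimum total 15 by group, robust fit), with Benjamini-Hochberg adjustment over all genes tested. Calls required an adjusted p under 0.05 with a log2 fold change beyond 1 in size, and for an interaction an adjusted p under 0.05. SE is the log2 fold change over the root of F. Only the groups compared entered a fit, and all 20 libraries the interaction. Normalised counts used DESeq2 1.42.0 size factors. TPM used the longest transcript of each gene. The fits were tested on simulated data. Python 3.11.15 and matplotlib 3.10.9 made the figures. No replicates agreed within sampling noise (chi-square per degree of freedom 13.5 to 170.2). Labels do not say that cells were pooled, and each library is 1 animal.

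The 10 genes, the 7 lists of 95 junction genes and the 9 lists of 56 markers were chosen with earlier results of these data known. The genes named are the 10, Ptprc, up to 4 called genes per list in CD45- and up to 2 in CD45+ cells with the largest log2 fold changes among those without overlap, the 5 genes most like Cdh1 and Cgnl1 (log2 CPM, prior count 2), and markers beside results. Of these lists, 2 genes are not reported here, though they remain in the counts. Motifs were searched in the RefSeq promoter table. The alternatives were DESeq2's test and size factors, no filter, a fit of all 20 libraries, 10 counts in 5 libraries, and a block. Further fits left out 66cl4 animals 5 and 6 or each library in turn. The block was the replicate number between the tumours, and the mouse between the gates and for the interaction. The 2 gates of an animal are paired by the mouse (r of deviations from the group means -0.00282 to 0.325). The main fits between the gates and of the interaction had no term for the mouse. They treated its 2 libraries as independent, and only the block allowed for the pairing.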

Additional observations from a re-analysis of the deposited data

Results flagged for a closer look

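Levels of the 10 genes could be judged in 38 groups of 5 libraries. Of these, 3 had a library that stood apart from the other 4 by Dixon's criterion. For normally distributed values the criterion would flag about 1.9. All 3 were genes with few counts, where that rate need not hold, so nothing is read from the number. Cldn3 was 4.23 normalised counts in the CD45+ library of 66cl4 animal 7 against 0 to 0.956 in the others. Cldn3 was 18.0 in the CD45- library of 67NR animal 6 against 1.76 to 6.14, and this library was also the highest of its group for the summed keratins, at 422.7. Cgn was 3.05 in the CD45+ library of 67NR animal 5 against 0 in the others. Without that library the interaction of Cgn moved from -0.78 to 1.95 on the log2 scale, and it was not called in either case.

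The tumour effect differed between the gates for 22 of the 36 genes named in the report and considered for this, by the interaction term over the 20 libraries (66cl4 minus 67NR in CD45+ cells, less the same in CD45- cells, edgeR, adjusted p under 0.05), beside 43.1% of all genes tested. Many of these genes were named for a large difference in 1 gate, so this count is a description. Of the 10 genes, the log2 values were 1.47 for Cdh1, -1.68 for Tjp1 and -2.85 for Cgnl1, a description for genes listed with their values known. Among tight junction membrane genes they were -7.23 for Igsf5, -4.33 for Cxadr, -1.86 for Cldn9 and 5.45 for Jam2. Among adherens junction genes they were 6.34 for Nectin1, 2.91 for Jup, -3.42 for Plekha7 and -0.66 for Vcl. For plaque and polarity genes they were -3.005 for Pard6b, -2.02 for Amotl2, -1.26 for Patj, -1.40 for Mpdz and -1.19 for Magi1. Desmosome genes gave -3.90 for Pkp2 and -1.98 for Ppl. The factors Gata3 and Klf5 gave -2.46 and -1.89. Spint2 gave -4.65. Snai1, lower in CD45- and not called in CD45+ cells of 66cl4 tumours, gave 5.84.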

How the results depend on the processing

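Over all settings run, no called difference of the 10 genes changed its direction. The same held for the genes of the lists with the largest called differences between the tumours. Other single genes, the keratins, and gate or interaction values outside the 10 were not compared across settings. Between the CD45- groups, the 10 genes gave 3 to 5 calls and the other junction genes 33 to 36 with 1 library left out, against 4 and 33. Genes called numbered 4797 to 5070 in CD45- and 1507 to 1880 in CD45+ cells with 1 library left out, 6698 to 7020 and 6022 to 6461 between the gates of 66cl4 and 67NR tumours, and 6571 to 7320 for the interaction. Between the CD45+ groups, 1 of the 10 genes was called, 2 with no filter, 2 with all 20 libraries in the fit, and 1 to 2 with 1 library left out. The other junction genes called there were 14, 23 with all 20 libraries in the fit, 6 without 66cl4 animals 5 and 6, and 10 to 16 with 1 library left out. Between the gates of 67NR tumours, 2 of the 10 genes were called and 6 with no filter, through genes with few counts. The 5 genes most like Cdh1 and most like Cgnl1 shared 0 and 0 genes with those found over the 10 CD45- libraries. The cause of these changes was not tested beyond the genes named. Esrp1, not tested between the CD45- groups, was called in 6 settings, and Magi1 in CD45+ cells lost its call with the block.

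With the replicate number as a block, 4766 genes were called between the CD45- groups, 1340 between the CD45+ groups, 6616 and 6019 between the gates, and 7150 for the interaction. Neither block changed a call of the 10 genes, or any count of calls by over 1.5 times. Between the tumours the number is only a number (r -0.146 to 0.079). Depth limits Cldn3, Cldn4, Cldn7, Ocln and Esrp1, which had at most 25 counts in a library.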
